A study of Homo sapiens and synthetic construct with 19 samples.

Results

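The sgRNA pairs described here were directed against 26 genes of DNA repair and the DNA damage response in a pooled dropout screen. Members were chosen by gene name alone, as RAD (without RAD21), BRCA, FANC, XRCC, ERCC, MSH, MLH and RECQL genes together with BLM, WRN, ATM, ATR, CHEK1, TP53BP1, MRE11A, NBN and MDC1. This gave 81 of the 3709 pairs in the table, against 26 of 1146 target names; XRCC genes, CHEK1 and MRE11A were not analysed here. Each of 25 genes had 3 pairs, and TP53BP1 had 6 because its P1 and P2 start sites were targeted separately.

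The cells were TF-1, a GM-CSF dependent human erythroleukemia line, as 3 single-cell clones that express ZIM3-Cas9, an active Cas9 fused to the repressive KRAB domain of ZIM3, from a doxycycline-inducible construct. By the paper's design, every construct carried a pair of sgRNAs. The promoter sgRNA, truncated to 15 nt, recruits the fusion for repression, and the 20-nt sgRNA directs cutting of a coding exon. Both groups hold the same library: "clones" are the 3 TF-1 populations after selection and 14 days of doxycycline, and "pool" is the plasmid library grown in E. coli and sequenced in 3 libraries. The table used here holds no cells sampled before doxycycline, so a shift during transduction or selection and a shift during the 14 days cannot be told apart.

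DNA repair works by dedicated routes. Double-strand breaks are sensed by the MRN complex, ATM and the chromatin proteins MDC1 and TP53BP1, and are repaired by homologous recombination, in which BRCA1 and BRCA2 prepare resected DNA for strand invasion. ATR is the kinase that answers stalled replication forks, RecQ helicases such as BLM unwind recombination and fork structures, mismatch repair corrects replication errors, and nucleotide excision repair removes bulky lesions with the help of TFIIH, a complex that also opens promoters for transcription. Loss of recombination or fork protection is known to slow proliferating cells even without added damage, whereas many excision and mismatch repair genes can be lost without an immediate growth cost.

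Sequences for 36 of the 81 pairs, against 12 of the genes, were read from the study's library sheet; those of the other 45 pairs were not used here. The sites of 35 promoter and 36 knockout sgRNAs were placed on hg38 by exact match next to an NGG PAM, and all 36 knockout cuts fell in coding exons of the GENCODE v44 canonical transcript. All 36 knockout sgRNAs had 1 such match in the genome, as did 31 of the placed promoter sgRNAs. The others had up to 3, with 2 for ATR pair 2, and the site at the gene is given. The promoter sites lay between 65 bases upstream and 264 bases downstream of the canonical start. As ordered, 19 of the promoter sgRNAs were 16 nt long, and some knockout sgRNAs, such as that of ATR pair 1, were 21 nt long. Only the last 15 and 20 bases were placed and are shown. Below, the target sites are written 5′ to 3′ in lower case with the genomic PAM in capitals, first for ATR, whose pairs differed most, and then for ERCC2, the TFIIH helicase.
ATR pair 1, promoter site: gaacccgcgttggcgTGG
ATR pair 2, promoter site: gacggagccgtgtggAGG
ATR pair 3, promoter site: gccgggaacccgcgtTGG
ATR pair 1, knockout site: tgtacgtggaaagggcaaagTGG
ATR pair 2, knockout site: gagcatgtgaagttacaatgAGG
ATR pair 3, knockout site: gatgaaatcaagcaacatcaCGG
ERCC2 pair 1, promoter site: gcagcagtgatagcgAGG
ERCC2 pair 2, promoter site: gtcgagcccagagaaGGG
ERCC2 pair 3, promoter site: gccatgaagtgagaaGGG
ERCC2 pair 1, knockout site: gtagctataaaccaccacatTGG
ERCC2 pair 2, knockout site: gtactgcgcccgcacataggAGG
ERCC2 pair 3, knockout site: gatcctgcatgccaatgtggTGG

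BLM and ERCC6L are shown because pairs against each of them differed widely, and ERCC3, chosen after its values were seen, because it encodes the other helicase of TFIIH. The BLM sites come from the pairs with the nearest cuts, and the ERCC6L and ERCC3 sites from the pairs furthest apart in log2 change.
BLM pair 1, promoter site: cagactcctagcggaCGG
BLM pair 3, promoter site: cacgcagactcctagCGG
BLM pair 1, knockout site: agtgaccccaggagaaacacAGG
BLM pair 3, knockout site: gaaatgacaacagtgaccccAGG
ERCC6L pair 1, promoter site: gctagacccgcccagCGG
ERCC6L pair 2, promoter site: catcccgaaggtttcCGG
ERCC6L pair 1, knockout site: agatgagggacatcaaactcTGG
ERCC6L pair 2, knockout site: agagtgtggaaaaatccaggAGG
ERCC3 pair 2, promoter site: acaacagggagcttcCGG
ERCC3 pair 3, promoter site: cccacaggcccgccgCGG
ERCC3 pair 2, knockout site: agtcaaacccagcttacagtGGG
ERCC3 pair 3, knockout site: agggcatgcttaccacccagAGG

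Taking the step of which all values of a library are whole multiples as 1 read, an inference from the values, the libraries held between 3162036 and 7192845 reads, and each of the 81 pairs was read in all 6 libraries, with 20 to 8920 reads and a median of 1014. Values below are the deposited normalized reads, and a log2 change is the mean of log2(value + 1) over the 3 clones minus that over the 3 pool libraries. A gene's log2 change is the mean over its pairs, tested with limma and adjusted by Benjamini-Hochberg over all 1146 names, with a threshold of 0.05. The positive control CSF2RA, a receptor chain for GM-CSF, was at -5.86 ± 0.59 (SE, n = 3 clones and 3 pool libraries). The study's other positive controls were less depleted, with MYC at -1.72 ± 0.22 and RPA3 at -2.07 ± 0.19.

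Of the 26 genes, 12 were lower in the clones and 8 were higher on the deposited scale, while 6 passed in neither direction. Over all genes tested, 32.8% were lower and 26.5% were higher, against 46.2% and 30.8% of the repair genes. The median log2 change of the repair genes was -0.02, the same to 2 decimals as the median of -0.02 over all genes. At the level of single pairs, 33 of 81 were lower and 23 higher, beside 28.8% and 25.4% of the 3686 pairs tested. All 3 clones lay below all 3 pool libraries for 32 of the 81 pairs and above them for 27, beside 32.3% and 31.2% of the pairs tested. At gene level, the middle of the set was thus that of the library. Below -1 lay 4 of the 26 genes (15.4%), beside 10.6% of all genes, a difference that was not tested.

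The zero of this scale is the whole library, not an inert construct. Of the 10 pairs named as controls in the table, 4 passed as higher and 1 as lower, beside 25.4% and 28.8% of all pairs tested. The names of these control pairs do not say what they target, and whether they are inert was not tested. Their median log2 change was 0.31, spread from -0.39 to 1.10. Centred on that median, a setting chosen after seeing the data, 16 of the repair genes were lower and 1, RAD54L2, was higher, beside 58.6% and 5.93% of all genes. This centring moves every gene down by the same amount with its error unchanged, so that lower calls cannot be lost by it and say nothing of stability, while 7 of the 8 higher calls were lost. Of single pairs, 42 (lower) and 6 (higher) of 81 passed, beside 44.5% and 8.3% of all pairs, the higher ones being RAD18 pair 3, RAD54L2 pair 2, MLH3 pair 1, NBN pair 1, ERCC2 pair 3 and MSH6 pair 2.

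The replication checkpoint was represented by ATR, which was lower at -2.26 ± 0.19 (adjusted p = 2.37e-05), a 4.78-fold lower level, with all 3 pairs lower. ATR pair 1 stood at 667, 417 and 744 in the clones and at 1038, 1103 and 978 in the pool. Values of pair 2 were 132, 184 and 88.1 against 649.8, 765 and 707. For pair 3 the clones read 60.6, 15.5 and 57.7 against 458, 452 and 433. The clones lay below the pool for each pair, yet the depth of depletion was graded, with log2 changes of -0.81, -2.44 and -3.52. The difference between pairs 1 and 3, 2.71 ± 0.37 (adjusted p = 0.000246), was the largest between pairs of any of the 26 genes, and pairs 1 and 2 differed by 1.63 ± 0.41 (adjusted p = 0.00783).

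The ATR promoter sites of pairs 1 and 3, chr3:142578733-142578747 and chr3:142578738-142578752, lie on the same strand upstream of the start and share 10 of their 15 bases. Their knockout sites are far apart. Pair 1 cuts in exon 34 of 47, at 74.1% of the coding sequence (chr3:142496376-142496395), and pair 3 in exon 3, at 2.52% (chr3:142566197-142566216). Pair 2 cuts later still, at 96.0% in exon 45 (chr3:142457639-142457658), and its promoter site at chr3:142578791-142578805 shares no base with the others. The order of the log2 changes therefore did not follow the order of the cuts along the coding sequence.

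The mediators of recombination were lower by less. BRCA1, which promotes end resection, was at -1.13 ± 0.10 (adjusted p = 1.98e-05). BRCA1 pair 1 stood at 314, 620.1 and 721 in the clones and at 1664, 1109.8 and 1828 in the pool. Values of pair 3 were 967, 765 and 964 against 2676, 2791 and 2671. These pairs did not overlap between the groups and had log2 changes of -1.53 and -1.60. Pair 2 stood at 663, 721 and 497 against 758, 799.8 and 681, which overlapped, and its -0.27 ± 0.17 did not pass (adjusted p = 0.210). Pairs 2 and 3 differed by 1.34 ± 0.22 (adjusted p = 0.000739). All 3 knockout sgRNAs cut late, pairs 1 and 3 in exon 22 of 23 at 96.9% and 97.3% of the coding sequence and pair 2 in exon 19 at 93.7%.

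BRCA2, a mediator of recombination at resected DNA, was at -0.51 ± 0.11 (adjusted p = 0.00317), with pairs between -0.62 and -0.32, and 2 of the 3 passed. With the median over its pairs BRCA2 was at -0.32 and did not pass (adjusted p = 0.0639). RAD54L, the translocase RAD54 that acts during strand invasion, was at -0.62 ± 0.09 (adjusted p = 0.000398), but its pairs opposed each other, and with their summed values it was at -0.22 and did not pass (adjusted p = 0.0572). RAD54L pair 1 stood at 426, 475 and 484 in the clones and at 2776, 1273 and 1397 in the pool. For pair 2 the clones read 1311, 1425 and 1394 against 1776, 1949.8 and 1939. Pair 3 went the other way, with 3839.6, 3093 and 3332 against 2419, 2380.4 and 2523. Pool library 1 gave pair 1 a value far above the other 2 pool libraries, and even so all 3 clones lay below the lowest of them. Pairs 1 and 2 were lower (-1.88 and -0.46), pair 3 was higher on the deposited scale (0.48 ± 0.10, adjusted p = 0.00280, not past the threshold when centred on the control pairs), and pairs 1 and 3 differed by -2.37 ± 0.27 (adjusted p = 8.9e-05). RAD54B, its paralog, was at 0.38 ± 0.06 on the deposited scale (adjusted p = 0.000716) and at 0.08 when centred on the control pairs, where it did not pass.

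Among the RecQ helicases, 2 of 5 were lower, beside 32.8% of all genes. BLM, the Bloom syndrome helicase that dissolves double Holliday junctions, was at -1.17 ± 0.17 (adjusted p = 0.000423), with all 3 pairs lower. BLM pair 1 stood at 78.0, 45.0 and 119 in the clones and at 314, 369 and 360.0 in the pool. Values of pair 2 were 1268, 888 and 1172 against 1486, 1648 and 1526. Pair 3 stood at 706, 726 and 951 against 1351, 1322 and 1456. None of these overlapped, but pair 1 had the deepest change at -2.20, against -0.50 for pair 2 and -0.80 for pair 3. Pairs 1 and 2 differed by -1.70 ± 0.30 (adjusted p = 0.00109).

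Pairs 1 and 3 of BLM nearly share both sites, and this comparison was chosen after its values were seen. Their promoter sites, chr15:90717418-90717432 and chr15:90717422-90717436, overlap by 11 bases in the 5′ UTR, and their knockout sites at chr15:90765332-90765351 and chr15:90765343-90765362 cut exon 9 of 22 only 11 coding bases apart. The pairs nevertheless differed by -1.39 ± 0.32 (adjusted p = 0.00493). Across the 12 genes with sequences, 7 of the 36 combinations of pairs cut within 50 coding bases of each other, and 3 of these 7 differed past the threshold, a share close to the 43.3% of all differences between pairs of 1 start site in the table. The other two were ERCC5 pair 1 against pairs 2 and 3, all within the first 2.33% of the coding sequence.

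RECQL4, the Rothmund-Thomson syndrome helicase with a role at replication origins, was at -0.93 ± 0.07 (adjusted p = 8.54e-06). RECQL4 pair 1 stood at 698, 802 and 605 in the clones and at 1761, 1852 and 1356 in the pool. Pair 2 stood at 1572, 1439 and 1774 against 1939, 2131 and 2094. For pair 3 the clones read 610.2, 659.6 and 777 against 1608, 1337 and 1672. All clones lay below the pool for each pair, and the change of pair 2, -0.37, was smaller than the -1.23 and -1.17 of the others. RECQL5, WRN and RECQL did not pass, at -0.04, 0.06 and 0.16. WRN, the Werner syndrome helicase, had a 95% interval from -0.14 to 0.25 on the deposited scale, and it was lower (-0.25, adjusted p = 0.0307) when centred on the control pairs, as was RECQL5 (-0.34, adjusted p = 0.00171).

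The sensors of double-strand breaks were split. MDC1, the scaffold that binds phosphorylated H2AX, was at -0.60 ± 0.07 (adjusted p = 0.000108). MDC1 pair 1 stood at 2705, 2289 and 1978 in the clones and at 3239, 3236 and 2959.7 in the pool. For pair 2 the clones read 1299.8, 1406 and 1243 against 1620.3, 1655 and 1828. Values of pair 3 were 242, 344 and 357 against 602, 622 and 597. The clones were below the pool throughout, with changes of -0.45, -0.37 and -0.97. ATM, the apical kinase of the break response, stayed near the library average, with pairs between -0.13 and 0.17 and a gene-level 95% interval from -0.20 to 0.20, although it too was lower when centred on the control pairs (-0.30, adjusted p = 0.0137).

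NBN, the NBS1 subunit of the MRN complex, was among the genes with the highest log2 change on the deposited scale, at 0.46 ± 0.08 (adjusted p = 0.00143). NBN pair 1 stood at 1149, 1230.4 and 1262 in the clones and at 601, 719 and 688 in the pool. The values of pair 2 were 1383, 1309 and 1488 against 1008, 957 and 968. Pair 3 stood at 462, 462 and 479 against 436, 502 and 453. Pairs 1 and 2 did not overlap between groups and pair 3 did. When centred on the control pairs, NBN was at 0.15 and did not pass (adjusted p = 0.139).

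TP53BP1, which restrains end resection, was at -0.21 ± 0.07 (adjusted p = 0.0273), with 3 of its 6 pairs lower and 1 higher. At the P1 start site the pairs were at -0.61, -0.76 and 0.43, and at the P2 start site at 0.08, -0.35 and -0.07. P1 minus P2 was -0.20, with a 95% interval from -0.44 to 0.05, which did not pass (adjusted p = 0.190), while 36% of the 100 comparisons between start sites in the table did. The gene-level call ended when any 1 of the 3 pool libraries was left out, with adjusted p = 0.0923, 0.0826 and 0.0894 without pool libraries 1, 2 and 3.

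ERCC2, the XPD helicase of TFIIH, showed no depletion. ERCC2 pair 1 stood at 423, 895 and 747 in the clones and at 611, 658 and 725 in the pool. Pair 2 stood at 1799, 1369.8 and 2217 against 1483, 1617 and 1481. For pair 3 the clones read 2656, 2754 and 2646 against 1722, 1830.3 and 1638. For pair 1, clone 1 lay below the pool and clones 2 and 3 above it, for pair 2 clone 2 lay below and the others above, and for pair 3 every clone lay above. The log2 changes were -0.01 ± 0.25, 0.21 ± 0.16 and 0.64 ± 0.09, of which pair 3 passed (adjusted p = 0.000289).

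At the level of the gene, ERCC2 was at 0.28 ± 0.10 (adjusted p = 0.0339), and this call was fragile. It ended without clone 2 (adjusted p = 0.0743), clone 3 (0.101), pool library 1 (0.105), pool library 2 (0.0595) or pool library 3 (0.0842), and centring on the control pairs turned the value to -0.03. The knockout sites of pairs 1 and 3, chr19:45364515-45364534 and chr19:45364529-45364548, lie on opposite strands and cut the same base of exon 8 of 23, at 26.8% of the coding sequence. Pair 2 cuts in exon 6, at 18.5%. The promoter sites were 179, 264 and 37 bases downstream of the canonical start, those of pairs 1 and 2 in an intron (chr19:45370387-45370401 and chr19:45370302-45370316) and that of pair 3 at the first codons (chr19:45370529-45370543). From the nearest start of any annotated ERCC2 transcript, these sites were at -10, 75 and 5 bases, with minus for upstream. No difference between these 3 pairs passed, the largest being -0.65 between pairs 1 and 3, with a 95% interval from -1.19 to -0.11 (adjusted p = 0.0538).

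ERCC3, the XPB helicase of the same complex, was lower at -0.46 ± 0.10 (adjusted p = 0.00374). ERCC3 pair 3 stood at 697, 531 and 744 in the clones and at 1525, 1529.8 and 1636 in the pool, and pair 2 at 1933, 1370.5 and 1372 against 1186, 1271 and 1241. The groups separated in both pairs, downwards in pair 3 (-1.26) and upwards in pair 2 (0.32, adjusted p = 0.0823), and these pairs differed by 1.58 ± 0.18 (adjusted p = 0.0001). Pair 1 overlapped between the groups and passed as lower, at -0.44 ± 0.15 (adjusted p = 0.0338), so 2 of the 3 pairs were called lower and none higher. Pair 3 cuts in exon 2 of 15 (chr2:127293500-127293519) and pair 2 in exon 9 (chr2:127280573-127280592). With the median over its pairs in place of the mean, ERCC3 was at -0.02 and did not pass (adjusted p = 0.890).

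The remaining excision repair genes showed no depletion at gene level on the deposited scale. ERCC5, the XPG nuclease, had pairs at -0.53, 0.34 and 0.27 and a gene value of 0.03. It passed as lower when centred on the control pairs (-0.28, adjusted p = 0.0120) and as higher with the median over its pairs (0.34, adjusted p = 0.0200). ERCC6, the CSB translocase of transcription-coupled repair, was at 0.41 ± 0.08 (adjusted p = 0.00149) with all 3 pairs higher on the deposited scale. Mismatch repair was represented by MSH6, a subunit of the mismatch sensor, and MLH3, which acts mainly in meiotic crossing over. Both were higher on the deposited scale, at 0.43 ± 0.09 (adjusted p = 0.00298) and 0.43 ± 0.07 (adjusted p = 0.000765), and at 0.12 and 0.13 when centred on the control pairs, where neither passed, as also held for ERCC6 at 0.11. RAD18, the ubiquitin ligase of lesion bypass, was at 0.32 ± 0.09 (adjusted p = 0.0116) on the deposited scale through pair 3 alone, which was at 0.99 beside 0.07 and -0.09 for the other pairs. Centred on the control pairs it was at 0.01.

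FANCM, the branch-migrating translocase of the Fanconi anemia pathway and the only gene here with a FANC name, was lower at -0.48 ± 0.08 (adjusted p = 0.000682). Its pairs were close together, from -0.60 to -0.31, and each passed. In all, every pair passed as lower for 6 of the 26 genes, which is 23.1% and includes ATR, BLM, RECQL4, MDC1 and FANCM, beside 9.94% of the genes with 3 or more pairs in the table.

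The 3 genes named for sequence similarity and not placed in a repair route behaved differently from each other. ERCC6L, the PICH translocase of mitotic DNA bridges, was lower at -0.63 ± 0.13 (adjusted p = 0.00225). ERCC6L pair 1 stood at 524, 402 and 717 in the clones and at 1644, 1419.7 and 1312 in the pool. For pair 2 the clones read 1661, 1452 and 1508 against 1244, 1323 and 1282. The values of pair 3 were 965, 493 and 581 against 1062, 1155 and 1003. No pair overlapped, but pairs 1 and 3 were below the pool (-1.45 and -0.72) and pair 2 above it (0.26, adjusted p = 0.0514). Pairs 1 and 2 differed by -1.71 ± 0.22 (adjusted p = 0.000174). In a gene of 2 exons, pair 1 cuts at 38.3% of the coding sequence (chrX:72207329-72207348) and pair 2 at 97.3% (chrX:72205115-72205134). Their promoter sites differed as well. That of pair 1 lay 205 bases downstream of the canonical start in an intron, and that of pair 2 130 bases downstream in coding exon 1. The promoter sgRNA of pair 3 had no exact match next to an NGG PAM and was not placed.

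RAD54L2, also called ARIP4, had the highest log2 change of the 26 genes, at 0.56 ± 0.06 (adjusted p = 0.000103), and stayed higher when centred on the control pairs, at 0.26 (adjusted p = 0.00624). Its value on the deposited scale nevertheless lay inside the spread of the single control pairs, from -0.39 to 1.10. RAD54L2 pair 1 stood at 2748, 2491 and 2486 in the clones and at 1865, 1855 and 2028 in the pool. The values of pair 2 were 3525, 3051 and 3209 against 1644, 1646 and 1681. Pair 3 stood at 4066, 3637 and 3713 against 2981, 3235 and 3084. Every clone was above every pool library, with pair 2 at 0.97 and the others at 0.43 and 0.29. ERCC6L2 averaged 0.01 over pairs of opposite direction, of which pair 2 was higher (0.46) and pair 3 lower (-0.59). With the median over its pairs, ERCC6L2 was at -0.59 and passed as lower (adjusted p = 0.0260), whereas with their summed values it was at 0.30 and passed as higher (adjusted p = 0.0106).

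Disagreement within a gene was common throughout the library. Of the 81 differences between pairs of the same start site in these genes, 29 (35.8%) passed the threshold, beside 43.3% of all such differences in the table. The median size of the differences was 0.47 both here and over the table. Pairs of 1 gene that passed in opposite directions were found in 4 of the 26 genes (RAD54L, TP53BP1, ERCC5 and ERCC6L2), which is 15.4%, beside 18.9% of the genes with 3 or more pairs. None of the higher pairs of these 4 genes passed as higher when centred on the control pairs. In that setting MLH3 had opposed pairs, with pair 1 higher (0.58, adjusted p = 0.00270) and pair 2 lower (-0.31, adjusted p = 0.0464). The clones also spread more than the pool, with a median SD on the log2 scale of 0.16 over the 3 clones and 0.10 over the 3 pool libraries of a repair pair.

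The table held 31 other genes of the DNA damage response from a list of 79. Of these, 12 (38.7%) were lower and 9 (29.0%) higher on the deposited scale, beside 32.8% and 26.5% of all genes, with a median of -0.01. The 6 lowest were the nuclease and helicase DNA2 (-2.23 ± 0.17), the single-strand binding subunits RPA3 (-2.07 ± 0.19) and RPA1 (-1.56 ± 0.10), the deubiquitinase BAP1 (-1.14 ± 0.20), the ubiquitin ligase RNF8 (-0.98 ± 0.15) and the TFIIH core subunit GTF2H1 (-0.95 ± 0.08). Their adjusted p-values were all at or below 0.00105. Pairs of BAP1 ran from -3.21 to 0.38 and those of RNF8 from -2.75 to 0.67, while all pairs of the other named genes were negative. ATR thus lay near the replication factors DNA2 and RPA3, and the TFIIH subunits were at -0.95 for GTF2H1, -0.46 for ERCC3 and 0.28 for ERCC2; these differences between genes were not tested.

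The mRNA of the 26 genes was read from 10 other libraries of the series, TF-1 cells with the catalytically dead dCas9-ZIM3, 8 with a CD33 sgRNA (sgRNA1 and sgRNA2, each as a 15mer and as a 20mer, with 2 libraries of each) and 2 controls, as normalized reads per kb of merged exons. All 26 were detected in every library. Over the 10 libraries, RECQL4 had the highest median level at 249 per kb, RAD54L had 228 and ERCC2 224. ATR had 18.4, and MDC1 was lowest at 1.01. These levels depend on the merged length over all annotated transcripts, which was 27.2 kb for ATR and 4.52 kb for RECQL4. Before division by length, their median normalized reads were 500 and 1123. The value of MDC1, in the major histocompatibility region of chromosome 6, is uncertain where reads also match alternate haplotype sequences. Genes lower in the screen had a median of 60.7 per kb and genes higher in the screen 56.5, with ranges that overlapped from 9.29 to 224. The levels also differed between the controls and the CD33 libraries. Both controls lay below all 8 CD33 libraries for 16 of the 26 genes and above all of them for 2. The same counts over all genes are not given here, and the cause was not tested. BLM, for example, stood at 94.0 and 72.4 normalized reads in the controls and at no less than 406 in the CD33 libraries. The medians above thus mostly describe the CD33 libraries, and their order did not hold in control 1. There RECQL stood at 532 per kb and RECQL4 at 90.9.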

How the data were processed

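sgRNA pairs were amplified from genomic DNA of 3 TF-1 clones and from the plasmid library. The deposited screen table holds 1 normalized signal per pair and library. The authors joined read pairs and removed unmapped reads and chimeric pairs. The paper reports a higher chimera rate for its oligo pool libraries than for the clones, and gives PCR conditions as the likely reason. Any effect of this difference on the log2 changes was not tested. The submitters' processing notes name MAGeCK, the study's methods CB2; no version is given by either. All values of a library were whole multiples of 1 step within 0.01, taken as 1 read; too few low values are present for an independent check of that step, so reads and library totals are inferred. The RNA-seq table holds signal the authors made with HISAT2 on hg38, htseq-count and DESeq2 size factors; 1 of its columns matched no label and was not used.

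Values were taken as log2(value + 1) and fitted with limma 3.58.1 (lmFit, eBayes with trend, two-sided, Benjamini-Hochberg over the whole table) in R 4.3.3, clones minus pool, for pairs, gene means, start sites and pair differences. The methods' CB2 was not run. Of 3709 pairs, 23 at 0 in all libraries were left out. The fits were tested on simulated data. edgeR 4.0.16 and DESeq2 1.42.0 on the reads were alternatives. Per-library values follow a rule that takes ERCC2, the 8 lowest genes, the 2 highest past the threshold and the 5 largest pair differences, and, chosen after its values were seen, ERCC3 pairs 2 and 3; 1 gene that it takes is counted but not reported here. The members and gene lists were chosen with earlier results of these data known. No source says that the pool libraries were prepared separately, so p-values may partly measure technical spread. Chi-square per degree of freedom of the reads was 8.03 to 12.1 between pool libraries and 37.9 to 47.3 between clones, so none was counted as a duplicate. Same-numbered clone and pool libraries did not deviate together (r = -0.08 to 0.02).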

Additional observations from a re-analysis of the deposited data

How the results depend on the processing

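Under every alternative run, the counts of lower pairs, lower genes and pair differences stayed within 1.5 times their reported value. ATR, BLM, BRCA1, RECQL4, ERCC6L, FANCM and MDC1 passed as lower in all 16 settings. Centred on the 10 control pairs, chosen after seeing the data, 6 pairs and 1 gene were higher in place of 23 and 8; values that changed sign were ATM (-0.30), ERCC2 (-0.032), ERCC5 (-0.28), ERCC6L2 (-0.30), RECQL (-0.14) and WRN (-0.25). Sign changes also came with the median over pairs (ATM -0.026, ERCC6L2 -0.59, WRN -0.038), centring on all pairs (ATM -0.0095, ERCC6L2 -0.0017) and equal totals (RECQL5 0.034); apart from the centring itself, the cause was not tested. With each library left out in turn, ATM ran from -0.035 to 0.036, ERCC5 from -0.048 to 0.069 and ERCC6L2 from -0.094 to 0.11. The median over pairs also ended the calls of BRCA2, ERCC3, TP53BP1, RAD18 and ERCC2, summed values that of RAD54L (-0.22, adjusted p = 0.0572), which also made ERCC5, ERCC6L2 and RECQL higher, and equal totals that of TP53BP1.

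The replicate block, for numbers that do not pair the libraries, gave 11 lower and 8 higher genes, without TP53BP1 (adjusted p = 0.0623), and P1 minus P2 of TP53BP1 stayed at -0.20. On the inferred reads, edgeR gave 30 lower and 24 higher pairs (1008 and 977 of all 3686) and DESeq2 33 and 24 (1078 and 984). The planned centring on CD33 and ANPEP pairs was not run, since no pair carries those names. Pairs with few reads in the clones, such as pair 3 of ATR and pair 1 of BLM, were among those with the widest errors.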
